A study of Microhyla fissipes with 12 samples.

Results

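Messenger RNA of dorsal muscle from tadpoles of the frog Microhyla fissipes was compared between S43 and S40 (stages 43 and 40 of the labels), a step that spans the entry into the climax of metamorphosis. The 6 libraries of this step, 3 at S43 and 3 at S40, are 6 of the 12 in the series. The other 6 come from S36 and S45. All animals came from 1 collection site and were fed spirulina powder, and the labels name no treatment, strain or genotype. The submitters call the libraries biological replicates and give no number of animals per library. The tests therefore weigh differences against the variation among libraries, part of which may be technical. In bulk RNA, fewer cells of a type and less RNA per cell cannot be told apart.

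Metamorphosis of a tadpole is driven by thyroid hormone, which enters cells and binds nuclear receptors that switch genes on or off. In frogs such as Xenopus, larval muscle fibres of the trunk are lost while adult-type fibres form beside them, and the larval and adult fibres carry different isoforms of contractile proteins. Transcripts of contractile proteins and of energy metabolism usually lead the messenger RNA of skeletal muscle. The deposited table lists unigenes, the assembled transcripts of a species without a reference here, by cluster and number and pairs none of them with a gene name. The named muscle genes therefore cannot be pointed to, the tissue label could not be checked against muscle markers, and each transcript is given below by its identifier, its level and its course.

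The values are FPKM, fragments scaled for unigene length and for the mapped fragments of the library. A unigene was tested where 3 or more of the 6 libraries reached an FPKM of 1, which 70050 of 468578 did. Of these, 1100 were abundant, with a mean FPKM of 100 or more over the 6 libraries, and 68950 were less abundant. The unigenes nearest the limit of 100 were Cluster-199519.118397 and Cluster-199519.126397, with means of 100.04 and 100.19, just inside, and Cluster-199519.114236 and Cluster-199519.106571, with means of 99.99 and 99.79, just outside. Just inside the lower limit were Cluster-101455.0 and Cluster-102070.0, whose third-highest value was 1, and just outside were Cluster-102699.0 and Cluster-103383.0, whose third-highest value was 0.99. A further 4 unigenes had a mean of 100 or more but failed the test of 3 libraries. They were high only in S43 replicate 2 (618 to 1187 FPKM) and S36 replicate 1 (259 to 474 FPKM), with 0 to 0.99 FPKM in the other S43 libraries and 0 to 26.9 FPKM in the S40 libraries. All 1100 abundant unigenes belonged to Cluster-199519, which held 64894 of the 70050 unigenes tested and 224984 of the 468578 in the table.

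The S43 libraries were less alike than the S40 libraries, and some resembled libraries of other stages. Over the tested unigenes the mean Pearson correlation of log2(FPKM + 1) was 0.653 among S43 libraries and 0.792 among S40 libraries. S43 replicate 2 correlated at 0.744 with S36 replicate 1 and at 0.680 and 0.615 with S43 replicates 1 and 3. S43 replicate 3 correlated at 0.788 with S45 replicate 1 and at 0.664 with S43 replicate 1. S40 replicate 1 was closer to S36 replicate 3 (0.864) than to S40 replicates 2 and 3 (0.786 and 0.792). In unigenes at a mean FPKM of 1000 or more over the pair, the robust SD of their log2 ratio was 0.0553. It was the second lowest of all pairs of libraries after S45 replicates 2 and 3 (0.0287). This robust SD is scaled from the median absolute deviation, gives outliers little weight and leaves out listed zeros. S45 replicates 2 and 3, the closest pair of all, were averaged and counted as 1 sample, while S36 replicate 3 and S40 replicate 1 were kept apart because their labels name different stages. At 10 to 30 FPKM the robust SD was 0.266 and 0.302 in these 2 pairs and sampling noise itself was not measured. Whether the stage label of any library is wrong was not tested, and the counts of abundant and of less abundant calls are given with and without the libraries that resemble another stage. S43 replicate 3 listed 135286 unigenes at an FPKM of 1 or more, against 68062 and 78159 in S43 replicates 1 and 2 and 70032 to 87889 in the S40 libraries. Relative depth, taken from the steps of the lowest values with S43 replicate 2 as 1.0, was 0.611 and 1.12 in S43 replicates 1 and 3 and 0.586 to 0.633 in the S40 libraries. It can be off by a factor of 2, and the absolute depth is unknown.

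Most unigenes varied more between the S43 libraries than between the S40 libraries. Among the 1100 abundant unigenes the median SD of log2(FPKM + 1) was 0.578 over the 3 S43 libraries and 0.275 over the 3 S40 libraries, and the SD was larger at S43 for 880 of them (80.0%). Among the less abundant the median SD was 0.773 at S43 and 0.441 at S40, and it was larger at S43 for 72.0%. The gap was narrowest among the 147 unigenes at 1000 FPKM or more, with a median SD of 0.321 at S43 and 0.223 at S40.

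**Figure D1:**
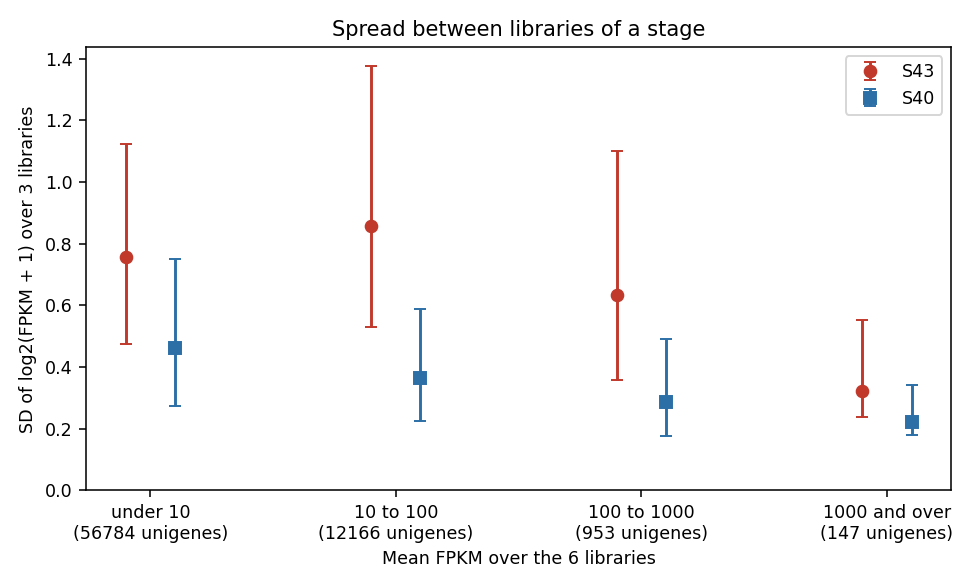
Spread between libraries of a stage, by class of mean FPKM over the 6 libraries (x axis). Points are the median, and bars the lower to upper quartile, of the SD of log2(FPKM + 1) over 3 libraries (y axis) for S43 (red circles) and S40 (blue squares). The S43 median lies above the S40 median in each of the 4 classes, 0.856 against 0.366 from 10 to 100 FPKM.

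Tests used limma, fitted to log2(FPKM + 1) of all 4 stages, in which all stages share 1 estimate of the spread per unigene. A unigene was called at a Benjamini-Hochberg adjusted p under 0.05 over all 70050 tested and a log2 difference, S43 minus S40, of at least 1 in size. Where S43 varied more than the other stages, a shared estimate is smaller than the spread of S43 alone. Where another stage varied more, it can be larger. The fit of the 6 S43 and S40 libraries alone is therefore given beside the main counts.

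Of the 10 unigenes with the highest mean FPKM over the 6 libraries, the leading transcripts of this muscle, 2 fell at S43 and the other 8 did not pass the test. The 4 highest had log2 differences of -0.36 to -0.16 (limma adjusted p = 0.34 to 0.76), and under quantile normalization the differences of 3 of these 4 turned positive. The highest, Cluster-199519.120100, had 33182, 34595 and 21222 FPKM in the S43 libraries, against 34299, 28706 and 45575 FPKM in the S40 libraries. The 2 stages overlapped in it. Cluster-199519.120386 had a positive difference (0.44), with 15002, 12029 and 11060 FPKM at S43 and 9845, 6999 and 11680 FPKM at S40, and did not pass (limma adjusted p = 0.27).

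Cluster-199519.119777 had 6480, 5190 and 2105 FPKM in the S43 libraries, against 29855, 16914 and 57055 FPKM in the S40 libraries. Every S43 library lay below every S40 library, and the mean was 7.54-fold lower at S43 (log2 difference -2.89 ± 0.47 SE, limma adjusted p = 0.019). Among the 10 unigenes it had the highest value in S40 replicate 3 and one of the lowest in S43 replicate 3. Cluster-199519.119986 had 2067, 2423 and 1777 FPKM at S43, against 26694, 8408 and 18060 FPKM at S40, a mean 8.48-fold lower at S43 (log2 -2.94 ± 0.39 SE, limma adjusted p = 0.0091). Its S43 libraries lay in a narrow range, while its S40 libraries spread about 3-fold. With the 6 libraries alone the adjusted p was 0.073 for Cluster-199519.119777 and 0.05 for Cluster-199519.119986, and neither was called. Over the 27 alternative fits the adjusted p ranged from 0.01 to 0.11 and from 0.0047 to 0.069. Cluster-199519.120252, next in abundance, was also lower in every S43 library (7623, 2877 and 956 FPKM) than in every S40 library (11440, 9424 and 15130 FPKM) but did not pass (log2 -2.09, limma adjusted p = 0.079).

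The share of the total taken by the leading transcripts was lower on average at S43 but the libraries overlapped. The 100 highest unigenes of each library held 37.2%, 30.6% and 26.2% of total FPKM in the S43 libraries, against 40.0%, 33.4% and 45.7% in the S40 libraries. The means were 31.3% ± 5.54 at S43 and 39.7% ± 6.16 at S40 (SD, n = 3 each), a difference of -8.37 percentage points (2-sided exact permutation p = 0.2, where 3 against 3 cannot go below 0.1). S43 replicate 1 lay above S40 replicate 2, and the other 2 S43 libraries lay below every S40 library. Shares of a total add up to the whole, so a smaller share for the leading transcripts leaves a larger one for the others. The FPKM values themselves have no fixed total. They summed to 1332754, 1360464 and 1688307 in S43 replicates 1, 2 and 3, against 1319120, 1297260 and 1247844 in S40 replicates 1, 2 and 3.

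**Figure D2:**
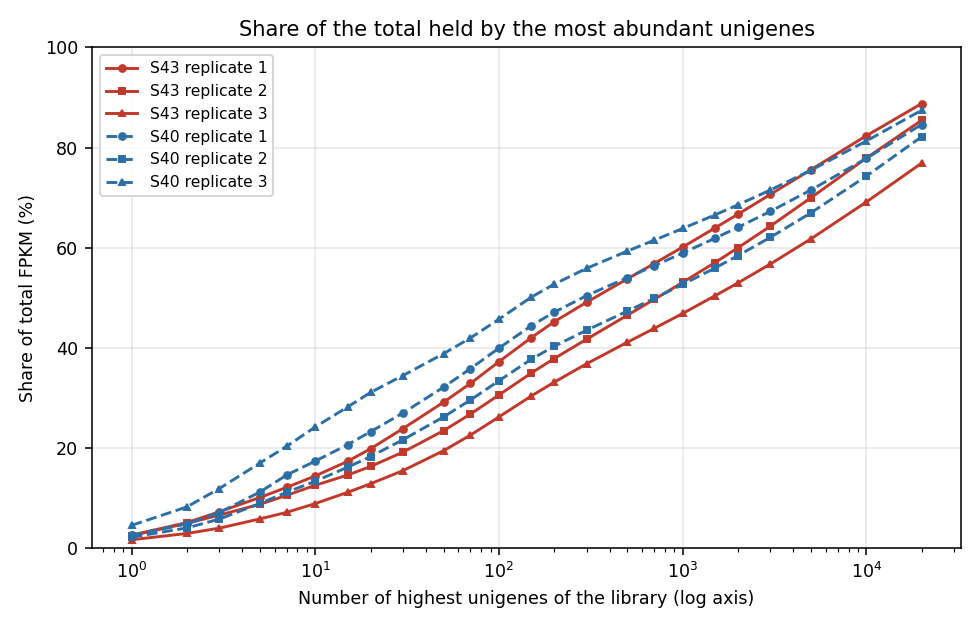
Cumulative share of total FPKM (y axis, %) held by the highest unigenes of each library, against their number (x axis, log scale), for the 3 S43 libraries (red, solid) and the 3 S40 libraries (blue, dashed). At 100 unigenes the S43 curves lie at 37.2%, 30.6% and 26.2% and the S40 curves at 40.0%, 33.4% and 45.7%.

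Among the abundant unigenes 38 were called higher and 29 lower at S43, 3.45% and 2.64% of the 1100. Over all tested unigenes these shares were 0.894% and 1.37%, or 2.26% in either direction. A large difference can itself lift the mean over the 6 libraries to 100 FPKM, so class and difference are not independent. Cluster-199519.37043 reached the class through its S43 values alone, and Cluster-199519.164678 through its S40 values alone. The shares set against all tested unigenes are therefore a description. The split between higher and lower turned with the class limit and with the scaling of the libraries. It was 56.7% higher as deposited. With classes set by the median FPKM over the 6 libraries, 917 unigenes were abundant, 25 of them called higher and 27 lower (48.1% higher). After median-ratio scaling it was 73 higher and 15 lower (83.0% higher), and after quantile normalization 27 higher and 68 lower (28.4%). The median log2 difference of the abundant unigenes was 0.23 as deposited, 0.39 under median-ratio scaling and -0.16 under quantile normalization, while that of all tested unigenes was -0.07, 0.04 and 0.01. The fit of the 6 libraries alone called 9 abundant unigenes higher (0.818%) and 3 lower (0.273%), against 0.05% and 0.0728% of all tested. The 3 lower include Cluster-199519.127623 and Cluster-199519.115432, both at a listed 0 in every S43 library, so that zeros showing no spread weigh in this count. Leaving out S40 replicate 1, 2 or 3 gave 5, 10 and 16 abundant calls, of which 5, 10 and 10 were also calls of the main fit. Leaving out S43 replicate 2 gave 28 higher and 7 lower, and 31 of these were also calls of the main fit. Among the libraries that resemble each other across stages, leaving out S36 replicate 3 and S40 replicate 1 gave 5 abundant calls. Leaving out S36 replicate 1 and S43 replicate 2 gave 10, and leaving out S43 replicate 3 and S45 replicate 1 gave 50. Of these, 5, 9 and 33 were also calls of the main fit. All 3 S43 libraries lay above all 3 S40 libraries for 243 abundant unigenes (22.1%) and below for 127 (11.5%), against 8.81% and 13.4% of all tested.

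**Figure D3:**
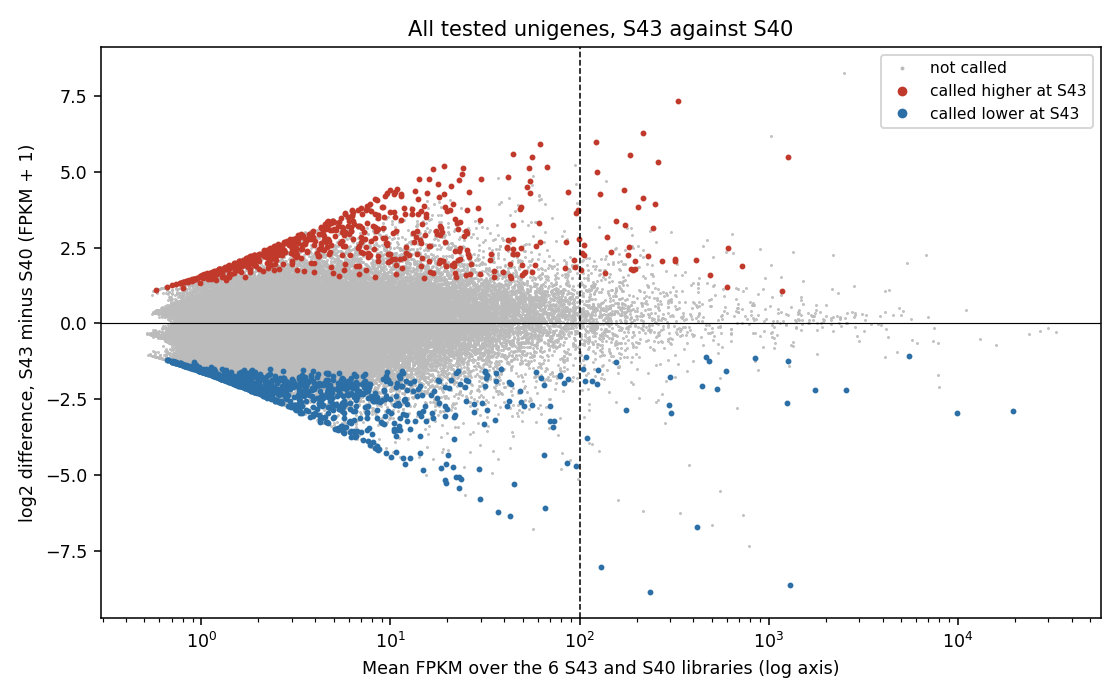
The log2 difference of FPKM + 1, S43 minus S40 (y axis), against the mean FPKM over the 6 libraries (x axis, log scale) for the 70050 tested unigenes, with those called higher at S43 in red, called lower in blue and not called in grey. The dashed line at 100 FPKM parts the 1100 abundant from the less abundant unigenes, with 38 and 29 calls to its right.

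The abundant unigenes called higher spanned log2 differences of 1.07 to 7.33. Together the 38 made up 2.02%, 1.00% and 0.972% of total FPKM in the S43 libraries, against 0.234%, 0.272% and 0.281% in the S40 libraries. The 8 with the largest differences are described first. Cluster-199519.117673 had 521, 228 and 245 FPKM in the S43 libraries, against 9.36, 18.4 and 14.3 FPKM at S40. Its mean was 23.6-fold higher at S43 (log2 4.41 ± 0.46 SE, limma adjusted p = 0.0033; 0.038 with the 6 libraries alone, and 0.0012 to 0.044 over all alternatives). It was the 1 abundant unigene called higher in all 27 alternative fits, and at S45 it stood at 71.1 to 141 FPKM, after 6.67 to 15.4 FPKM at S36.

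Of those 8, 7 were highest in S43 replicate 1. Cluster-199519.37043 had 1542, 398 and 47.3 FPKM in S43 replicates 1, 2 and 3, against 0.52, 1.23 and 1.11 FPKM at S40 (log2 7.33 ± 1.11 SE, limma adjusted p = 0.015). Cluster-199519.136175 had 1327, 194 and 23.0 FPKM at S43, against 2.18, 5.55 and 3.79 FPKM at S40 (log2 5.31 ± 1.11 SE, limma adjusted p = 0.039). The order of the S43 libraries was the same in both, and even the lowest S43 value was above every S40 value.

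Cluster-199519.44246 had 994, 74.6 and 35.5 FPKM at S43, against 2.34, 2.50 and 1.21 FPKM at S40 (log2 5.57 ± 0.94 SE, limma adjusted p = 0.021). Cluster-199519.65947 had 416, 262 and 45.8 FPKM at S43, against 0.70, 3.95 and 1.43 FPKM at S40 (log2 5.98 ± 0.73 SE, limma adjusted p = 0.0074). Both were near or under 1 FPKM in every S36 library and lay at 21.0 to 86.3 FPKM in the S45 libraries. Cluster-199519.75953 was the most abundant of the 8, with 5524, 1154 and 786 FPKM at S43, against 15.2, 60.7 and 53.7 FPKM at S40 (57.6-fold higher mean, log2 5.50 ± 0.83 SE, limma adjusted p = 0.015). It had 714 to 1863 FPKM in the S45 libraries.

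The other 2 held a listed 0 in an S40 library. Cluster-199519.111839 had 399, 136 and 176 FPKM at S43, against a listed 0 in S40 replicate 1 and 10.8 and 24.0 FPKM in S40 replicates 2 and 3 (limma adjusted p = 0.032). Cluster-199519.132517 had 167, 180 and 920 FPKM at S43, against 37.9, a listed 0 and 0.52 FPKM at S40 (limma adjusted p = 0.029). At S36 it had 20.98, 52.95 and 34.44 FPKM, each above its values in S40 replicates 2 and 3. It was the 1 of the 8 with its highest value in S43 replicate 3. With the 6 libraries alone, 7 of these 8 had an adjusted p of 0.058 to 0.097 and Cluster-199519.117673 passed. Over all alternatives the adjusted p of the 7 ranged from 0.0028 to 0.2.

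**Figure D4:**
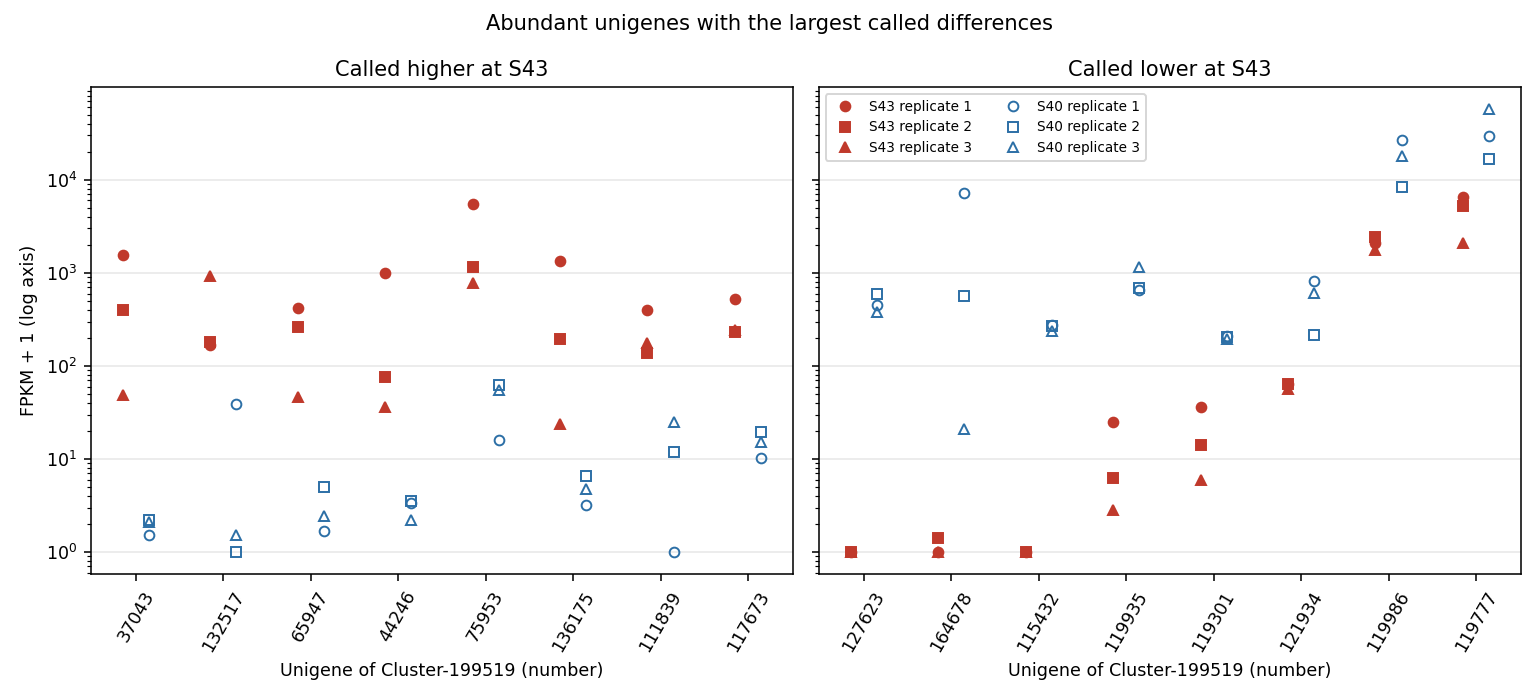
FPKM + 1 (y axis, log scale) of the 8 abundant unigenes called higher (left panel) and the 8 called lower (right panel) with the largest differences, named by their number in Cluster-199519 (x axis), in each S43 library (red, filled) and each S40 library (blue, open). No S43 value overlaps an S40 value of the same unigene, and points at 1 are listed zeros.

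Among the remaining 30 abundant unigenes called higher, log2 differences ran from 1.07 to 4.27, with mean FPKM of 160 to 1612 at S43 and 7.43 to 753 at S40. The highest value lay in S43 replicate 1 for 22 of all 38, in replicate 3 for 12 and in replicate 2 for 4. The S43 libraries of 13 lay within 2-fold of each other, and the S40 libraries of 29 did. Cluster-199519.69972 and Cluster-199519.69975, picked after their values were seen because they also passed with the 6 libraries alone, had tight S40 values. Cluster-199519.69972 had 328, 368 and 724 FPKM at S43, against 28.4, 28.0 and 28.2 FPKM at S40 (log2 3.93 ± 0.61 SE, limma adjusted p = 0.017; 0.035 with the 6 libraries alone; 0.0053 to 0.08 over all alternatives). Cluster-199519.69975 had 220, 226 and 415 FPKM at S43, against 19.5, 25.5 and 32.6 FPKM at S40 (log2 3.39 ± 0.57 SE, limma adjusted p = 0.021; 0.043 with the 6 libraries alone; 0.011 to 0.11 over all alternatives).

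The fit of the 6 libraries alone called a further 6 abundant unigenes higher, which did not pass in the fit of all stages. All of them had 1101 FPKM or more in every S43 library, and their log2 differences were 1.92 to 2.36. Cluster-199519.119313, the 16th most abundant unigene of the 6 libraries, had 7949, 12207 and 13519 FPKM at S43, against 1793, 2828 and 2334 FPKM at S40 (limma adjusted p = 0.042 with the 6 libraries alone and 0.25 with all stages). At S36 it had 357, 34.9 and 1678 FPKM, and this spread enters the fit of all stages. Cluster-199519.122689, the 21st, had 6556, 9047 and 10166 FPKM at S43, against 1618, 2600 and 2216 FPKM at S40 (limma adjusted p = 0.045 with the 6 libraries alone and 0.31 with all stages). The S36 libraries of all 6 were uneven in the same way, lowest in replicate 2 and highest in replicate 3. Over all alternatives their adjusted p ranged from 0.015 to 0.56, and they too were picked after their values were seen.

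The 29 abundant unigenes called lower held 1.40%, 1.18% and 0.686% of total FPKM in the S43 libraries, against 7.01%, 3.78% and 8.71% in the S40 libraries. Their log2 differences ran from -8.87 to -1.08. Cluster-199519.119935 had 23.8, 5.27 and 1.86 FPKM in the S43 libraries, against 646, 681 and 1159 FPKM in the S40 libraries. The mean was 80.5-fold lower at S43 (log2 -6.71 ± 0.69 SE, limma adjusted p = 0.0032; 0.04 with the 6 libraries alone, and 0.0011 to 0.04 over all alternatives). It was the 1 abundant unigene called lower in all 27 alternative fits, and it had 4.86 to 6.54 FPKM in the S45 libraries after 548 to 1776 FPKM at S36.

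Cluster-199519.119301 had 35.5, 13.0 and 5.02 FPKM at S43, against 207, 203 and 192 FPKM at S40 (log2 -3.79 ± 0.52 SE, limma adjusted p = 0.011). Its S40 libraries were nearly equal and its S43 libraries fell in the same order as those of Cluster-199519.119935. Cluster-199519.121934 was even at S43 and uneven at S40, with 62.7, 63.6 and 55.1 FPKM at S43, against 826, 216 and 605 FPKM at S40 (log2 -2.96 ± 0.44 SE, limma adjusted p = 0.015). The 2 most abundant unigenes that fell, Cluster-199519.119777 and Cluster-199519.119986, complete the group of named unigenes measured above 0 in every library. With the 6 libraries alone the adjusted p of Cluster-199519.119301 and Cluster-199519.121934 was 0.072 each, and over all alternatives it ranged from 0.0047 to 0.096.

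Of the 8 named lower unigenes, 3 were listed at 0 in S43 libraries. Cluster-199519.127623 was at a listed 0 throughout S43 and had 451, 596 and 376 FPKM at S40 (limma adjusted p = 0.036; 0.0011 with the 6 libraries alone). Cluster-199519.115432 was at a listed 0 throughout S43 too, against 277, 269 and 237 FPKM at S40 (limma adjusted p = 0.02; 0.0011 with the 6 libraries alone). Both entered the test only through their S40 values, and zeros throughout S43 show no spread there. Their small adjusted p with the 6 libraries alone is therefore no support for these calls. Cluster-199519.127623 was called in 12 of 27 alternatives and Cluster-199519.115432 in 19. Both shared an uneven S45, with 1193 and 172 FPKM in replicate 1 and a listed 0 in the other S45 libraries. Cluster-199519.164678 was listed at 0, 0.43 and 0 FPKM at S43, against 7195, 566 and 20.1 FPKM at S40 (limma adjusted p = 0.024; 0.085 with the 6 libraries alone). Its value in S40 replicate 1 is 1 of 25 there that reached 100 FPKM and 8-fold the value of every other library, 2.39% of that library. S43 replicates 1, 2 and 3 held 8, 6 and 1 such unigenes, with 0.647%, 0.108% and 0.0135% of their totals. Over all alternatives the adjusted p of the 3 ranged from 6e-06 to 0.18, and Cluster-199519.44246 is 1 of those in S43 replicate 1.

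Among the remaining 21 abundant unigenes called lower, log2 differences ran from -2.85 to -1.08, with mean FPKM of 46.2 to 3552 at S43 and 149 to 7533 at S40. The lowest S43 value lay in replicate 3 for 16 of all 29, in replicate 1 for 4 and in replicate 2 for 6, and 3 had no single lowest library. Cluster-199519.120137, the most abundant of those 21, had 4152, 3055 and 3449 FPKM at S43, against 7665, 5931 and 9002 FPKM at S40 (log2 -1.08 ± 0.19 SE, limma adjusted p = 0.023). Of the 147 unigenes at 1000 FPKM or more, 2 were called higher (1.36%) and 8 lower (5.44%), against 0.894% and 1.37% of all tested. The 8 include Cluster-199519.164678, which reached this class through 7195 FPKM in S40 replicate 1. The fit of the 6 libraries alone called 5 of the 147 higher (3.4%) and 0 lower, against 0.05% and 0.0728% of all tested. From 100 to 1000 FPKM the calls were 36 higher (3.78%) and 21 lower (2.20%) of 953. With the 6 libraries alone they were 4 higher (0.42%) and 3 lower (0.315%), and the 3 include Cluster-199519.127623 and Cluster-199519.115432, at a listed 0 throughout S43.

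The abundant unigenes called at S43 had a like direction in the stages that were not part of the comparison. In the S45 libraries against the S36 libraries, none of which enters the difference between S43 and S40, the 38 called higher were all higher at S45, and in each of them every S45 library lay above every S36 library. This held for 37.8% of all abundant unigenes and 31.5% of all tested. Of the 29 called lower, 27 were lower at S45 than at S36 and 26 had every S45 library below every S36 library, against 27.7% of all abundant unigenes and 6.35% of all tested. The median log2 difference, S45 minus S36, was 2.40 for the 38, -2.67 for the 29 and 0.14 for all abundant unigenes. Without S36 replicate 3 and S45 replicate 1, which resemble libraries of S40 and S43, the counts were again 38 of 38 higher and 27 of 29 lower. S45 was then only the average of replicates 2 and 3, counted as 1 sample, against 2 S36 libraries. Counts of every S45 library, here and for the less abundant unigenes, take replicates 2 and 3 apart although they were the closest pair of libraries. The calls come from a fit in which the spread at S36 and S45 counts too, which favours unigenes even within those stages.

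The median level of the 38, as log2(FPKM + 1), was 5.16 at S36, 5.51 at S40, 8.23 at S43 and 7.41 at S45, and that of the 29 was 8.82, 8.90, 6.51 and 6.30. These medians differed little between S36 and S40. The 2 unigenes called lower at S43 that were not lower at S45 than at S36 had S45 values near those of S40. Cluster-199519.123594 had 300, 276 and 280 FPKM at S43, against 671, 786 and 586 FPKM at S40, and 839, 739 and 744 FPKM in the S45 libraries. Cluster-199519.116588 had 83.8, 68.7 and 43.4 FPKM at S43, against 189, 210 and 156 FPKM at S40, and 152 to 166 FPKM at S45. Both were picked after their values were seen.

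**Figure D5:**
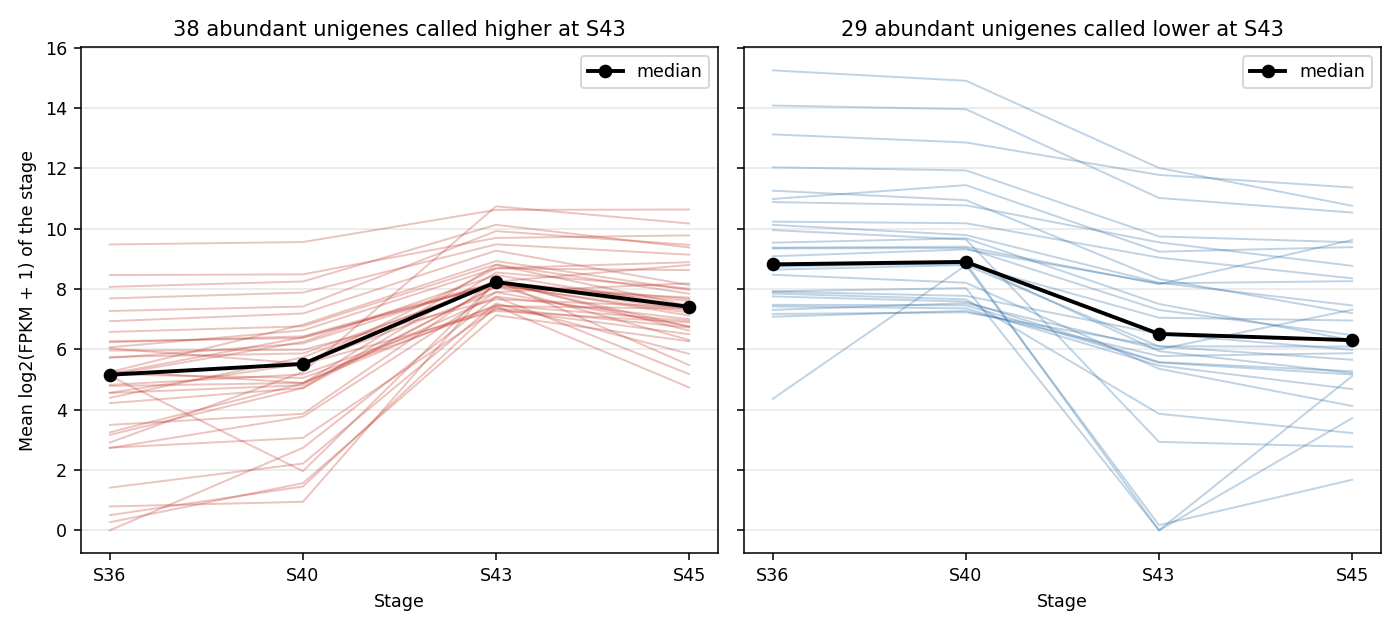
Mean log2(FPKM + 1) of each stage (y axis) at S36, S40, S43 and S45 (x axis) for the 38 abundant unigenes called higher at S43 (left, red lines) and the 29 called lower (right, blue lines), with the median in black. The S40 to S43 step chose these unigenes, while the medians at S36 (5.16 and 8.82) and S45 (7.41 and 6.30) come from other libraries.

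Among the 68950 less abundant unigenes 588 were called higher and 928 lower at S43, 0.853% and 1.35%, against 0.894% and 1.37% of all tested. With the 6 libraries alone 26 were called higher (0.0377%) and 48 lower (0.0696%), against 0.05% and 0.0728% of all tested. Median-ratio scaling gave 921 and 898, and quantile normalization gave 997 and 984, so that the excess of lower calls was seen on the FPKM scale as deposited and not after either scaling. As deposited it lay under 10 FPKM, with 437 higher (0.77%) and 798 lower (1.41%), while from 10 to 100 FPKM there were 151 higher (1.24%) and 130 lower (1.07%). When S43 replicate 3 was left out the calls were 555 higher and 1489 lower, and when S43 replicate 2 was left out they were 315 and 282, so that the balance moved with single libraries. Without the libraries alike across stages the less abundant calls numbered 53 (S36 replicate 3 and S40 replicate 1 left out), 152 (S36 replicate 1 and S43 replicate 2) and 1312 (S43 replicate 3 and S45 replicate 1). Leaving out S40 replicate 1, 2 or 3 gave 139, 125 and 172. The median log2 difference of the less abundant unigenes was -0.07. A listed 0 in any of the 6 libraries was found in 407 of the 588 called higher and in 609 of the 928 called lower. Of the 588 called higher, 286 were listed at 0 in every S40 library and so entered the test only through their S43 values. Of the 928 called lower, 374 were listed at 0 in every S43 library and so entered the test only through their S40 values. The highest S43 value lay in replicate 1 for 281, in replicate 2 for 114 and in replicate 3 for 156, and 377 had no single highest library.

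The 3 less abundant unigenes named first among those called higher were listed at 0 or near it in most S40 libraries. Cluster-199519.138272 was called in all 27 alternatives, with 27.2, 27.4 and 60.8 FPKM at S43 and a listed 0 in every S40 and S36 library (limma adjusted p = 0.0021; 0.035 with the 6 libraries alone). It entered the test only through its S43 values, and the filter favours such differences. Cluster-199519.32508 had 52.7, 27.5 and 63.2 FPKM at S43, against 0, 1.28 and 0 FPKM at S40 (limma adjusted p = 0.0044; 0.04 with the 6 libraries alone). Cluster-199519.59238 had 59.1, 108 and 164 FPKM at S43, against 0, 2.50 and 2.45 FPKM at S40 (limma adjusted p = 0.0063; 0.043 with the 6 libraries alone). These last 2 were also called in all 27 alternatives and stood at 17.6 to 61.8 FPKM in the S45 libraries. The adjusted p of the 3 ranged over the alternatives from 0.00088 to 0.043.

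The other 3 named higher calls rested on uneven S43 libraries. Cluster-199519.124652 had 295, 62.5 and 10.7 FPKM at S43 and a listed 0 in every S40 library (limma adjusted p = 0.032), and had 28.6, 43.1 and 1.85 FPKM at S36, so that S40 was its low point. It too entered the test only through its S43 values. Cluster-199519.122007 had 44.0, 38.4 and 182 FPKM at S43, against 0, 0 and 1.97 FPKM at S40 (limma adjusted p = 0.0085). At S45 it had 73.2, 129.6 and 0.19 FPKM in replicates 1, 2 and 3. The fit averaged S45 replicates 2 and 3, so their wide difference in this unigene does not enter its adjusted p. Cluster-199519.120488 had 102, 4.06 and 296 FPKM at S43, against 0, 0 and 2.43 FPKM at S40 (limma adjusted p = 0.049), was listed at 0 in every S45 library, and was called in 6 of 27 alternatives. With the 6 libraries alone the adjusted p of these 3 was 0.073, 0.051 and 0.13, and over all alternatives it ranged from 0.0064 to 0.24.

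Of the 6 named less abundant unigenes called lower, 4 were listed at 0 in all 3 S43 libraries. These 4 entered the test only through their S40 values, and the filter favours such differences. Leaving out an S43 library could not move their S43 mean from 0. Cluster-199519.99532 had 95.3, 46.9 and 114 FPKM at S40 (limma adjusted p = 0.0017; 0.015 with the 6 libraries alone). Cluster-199519.113541 had 96.7, 60.6 and 66.1 FPKM at S40 (limma adjusted p = 0.0019; 0.01 with the 6 libraries alone), and Cluster-199519.113542 had 82.7, 27.6 and 67.7 FPKM (limma adjusted p = 0.0021; 0.035 with the 6 libraries alone). These 3 were called in all 27 alternatives, and the last 2, of neighbouring numbers, were at 0 in every S45 library as well. The adjusted p of these 3 ranged over the alternatives from 0.00042 to 0.035.

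Cluster-199519.58601 was at a listed 0 throughout S43 and had 72.1, 39.4 and 26.0 FPKM at S40 (limma adjusted p = 0.02). At S45 it had 22.4 FPKM in replicate 1 and a listed 0 in replicates 2 and 3, the pattern of Cluster-199519.127623. Cluster-199519.73867 had 5.85, 0 and 0 FPKM at S43, against 151, 140 and 98.3 FPKM at S40 (limma adjusted p = 0.046). It was called in 9 of 27 alternatives, with an adjusted p of 0.026 to 0.23, and Cluster-199519.58601 in 20, with 0.0017 to 0.13. Cluster-199519.118328 had 0, 9.20 and 0 FPKM at S43, against 61.1, 111 and 87.1 FPKM at S40 (limma adjusted p = 0.019), and was back at 80.7 and 74.0 FPKM in S45 replicates 2 and 3, with 14.0 FPKM in replicate 1. Its adjusted p with the 6 libraries alone was 0.072, and over all alternatives it ranged from 0.0064 to 0.11.

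Listed zeros throughout a stage were found in both directions. A listed 0 in every S43 library with at least 1 FPKM in every S40 library was found for 811 unigenes (1.16% of those tested), of which 376 were called, and the reverse for 635 (0.906%), of which 286 were called. A unigene at 0 throughout one stage entered the test only through its values in the other, so the filter favours such differences and these counts are a description. An exact 0 can be a failed estimate in an assembly with many similar unigenes. With at least 10 FPKM in every S40 library there were 31 unigenes listed at 0 in every S43 library, and 23 of these also had at least 1 FPKM in every S36 library. At S45, 12 of the 31 were at 0 in every library, and 13 were above 0 in replicate 1 alone, the library that S43 replicate 3 resembles. With at least 10 FPKM in every S43 library there were 15 listed at 0 in every S40 library, and none of them was at 0 in every S45 library. Of these 15, 7 were at 0 in every S36 library. Of the larger sets, 342 of the 811 had at least 1 FPKM in every S36 library, and 320 were at 0 in every S45 library. Of the 635, 370 were at 0 in every S36 library and 99 in every S45 library. Shares over all unigenes of like level were not counted, so these courses are a description too.

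For the less abundant calls the other stages pointed the same way less uniformly. Of the 588 called higher, 499 (84.9%) had a higher mean log2 value at S45 than at S36, against 69.9% of all less abundant unigenes, and 310 (52.7%) had every S45 library above every S36 library, against 31.4%. Of the 928 called lower, 618 (66.6%) were lower at S45 than at S36, against 28.7%, and 456 (49.1%) had every S45 library below every S36 library, against 6.01%. Over all tested unigenes 69.7% were higher at S45 and 29.0% lower, so that lower values at S45 were the rarer direction. Outside Cluster-199519, 5156 unigenes were tested and none was abundant. Of these 131 (2.54%) were called higher and 144 (2.79%) lower, against 0.894% and 1.37% of all tested. Unigenes outside this cluster at an FPKM of 1 or more numbered 56543 in S43 replicate 3, against 12317 and 15937 in S43 replicates 1 and 2. The S40 libraries listed 9786 to 15087, and S45 replicates 1, 2 and 3 listed 49802, 23399 and 24966. Whether the uneven numbers bear on these calls was not tested.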

How the data were processed

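Per the labels' protocols, Trizol RNA was enriched for messenger RNA on poly-T beads and read in pairs on an Illumina HiSeq instrument. The authors deposited FPKM per unigene and library, rounded to 2 decimals. How the unigenes were assembled and counted is not given in the sources used here. No count model was used, as the values hold no counts.

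Stage and replicate number came from sample titles. limma 3.58.1 in R 4.3.3 (with the package data.table, version 1.17.8) was run on log2(FPKM + 1) of 11 samples, with a term for stage and eBayes with trend (S45 replicates 2 and 3 averaged). A fold is a ratio of mean FPKM. Log2 differences understate changes of low unigenes. The step was tested on simulated data. Other steps used Python 3.11.15 (scipy 1.17.1, numpy 2.4.6, pandas 2.3.3, matplotlib 3.10.9).

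Named were the 8 abundant unigenes called each way, and the 6 less abundant each way with a mean of at least 10 FPKM in the higher stage, with the largest log2 difference and no overlap between stages, and the 10 highest by mean. The comparison, classes and lists were chosen with earlier results of these data known. Gene lists were not run, because unigenes carry no names here. Alternatives were pseudocounts of 0.1 and 5, other filters, scalings and eBayes settings, sample weights, the 6 libraries alone, 12 separate libraries, a replicate block and libraries left out. The calls of the main fit were also counted with classes set by the median FPKM.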

Additional observations from a re-analysis of the deposited data

How the results depend on the processing

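The fit gave 67 abundant and 1516 less abundant calls, and these counts depended on the processing. For abundant unigenes the count was 6 with no filter, 12 in a fit of S43 and S40 alone, 116 with 12 separate libraries, 25 with sample weights, 5 without both S36 replicate 3 and S40 replicate 1, and 10 with S36 replicate 1 and S43 replicate 2 left out. With 1 library left out at a time it ran from 5 (S40 replicate 1) to 87 (S43 replicate 3). For less abundant unigenes it was 411 with a pseudocount of 5, 93 with no filter, 274 at a mean FPKM of at least 5, 74 in a fit of S43 and S40 alone, 2446 with 12 separate libraries, 809 with the replicate block, 420 with sample weights, 53 without both S36 replicate 3 and S40 replicate 1, and 152 with S36 replicate 1 and S43 replicate 2 left out. With 1 library left out it ran from 125 (S40 replicate 2) to 2044 (S43 replicate 3). Tests that use fewer samples have fewer degrees of freedom, and with no filter 384209 unigenes enter the adjustment. Whether either bears on these counts was not tested, and leaving out S43 replicate 3 raised both counts. Limma's sample weights were 0.724, 0.497 and 0.379 for S43 replicates 1, 2 and 3, the 3 lowest, against 1.21 to 1.7 for S40.

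Called under every alternative that tested them were 1 of 38 abundant higher, 1 of 29 abundant lower, 8 of 588 less abundant higher and 14 of 928 less abundant lower unigenes. The 28 named unigenes that were called lost the call in 178 of 756 refits. All 756 kept the direction, but these unigenes were picked for large differences without overlap between stages. Their direction could therefore hardly turn, and its stability is no support for the calls. Of the 8 named but not called, Cluster-199519.119636 (log2 difference -0.16) turned to 0.193 with quantile normalization and ran from -0.376 (without S40 replicate 2) to 0.135 (without S40 replicate 3) with 1 library left out, and under quantile normalization Cluster-199519.120143 turned to 0.013 and Cluster-199519.120282 to 0.254.

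Replicate numbers did not pair the stages: deviations of same-numbered S43 and S40 libraries correlated at 0.008, -0.107 and 0.019, and no S43 library correlated best with its own number. With the replicate block, in the fit of 12 separate libraries, 57 abundant unigenes were called. The share of the 100 highest unigenes kept its direction, from -11.5 to -5.37 percentage points with 1 library left out, and -6.36 for the 10 highest and -5.1 for the 1000 highest; blocking by replicate number left it at -8.37 (exact permutation p = 0.25, the smallest that 3 pairs can give). Fragments per value are unknown, so the precision that depth gives to unigenes of a few FPKM cannot be stated.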
